A study of Mus musculus with 20 samples.

Results

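Fkbp5, Tsc22d3, Per1, Klf9, Zbtb16, Dusp1, Sgk1 and Fkbp4 are textbook genes of the glucocorticoid and androgen response, as targets or as partners of the steroid receptors. They make up 8 of the 20377 genes in the deposited table, were taken by gene symbol, and all 8 had a row. Where a symbol had several transcript rows, the row with the largest total count was kept. This applied to Tsc22d3 and Per1, with 2 rows each, and to Sgk1, with 6. The libraries came from bone marrow of male 129S4 mice aged 4 months. KSL cells (cKit+ Sca1+ Lin-, a gate enriched for blood stem and progenitor cells) came from Fancd2-/- mice on oxymetholone, Fancd2-/- mice on placebo, wild-type mice on oxymetholone and wild-type mice on placebo. Each of these 4 groups had 3 libraries, each a pool of 5 mice. Erythroblasts (Ter119+, CD71 high, FSC high) came from wild-type mice on oxymetholone and wild-type mice on placebo, with 3 libraries per diet and 1 mouse per library. Whole bone marrow had 1 Fancd2-/- and 1 wild-type library, both on placebo and each combined from 5 mice. Oxymetholone, a synthetic anabolic androgen given to patients with marrow failure, was fed at 300 mg/kg of diet for 3 months after weaning. Fancd2 is a gene of the Fanconi anaemia DNA repair pathway.

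The receptors for these steroids belong to the nuclear receptor family. They wait in the cytoplasm on an HSP90 chaperone complex, move to the nucleus when they bind a steroid, and sit on nearly the same palindromic DNA element. Many of their target genes are therefore shared, and genes such as Fkbp5 and Tsc22d3 are commonly read as indicators of receptor activity. Glucocorticoid signalling is also known to support the expansion of red cell progenitors under stress. Of the 8 genes, Fkbp5 and Fkbp4 encode immunophilins of the HSP90 complex with opposing effects on glucocorticoid receptor activity. Tsc22d3 (GILZ) encodes a leucine zipper protein that mediates anti-inflammatory actions of glucocorticoids, and Dusp1 encodes a phosphatase that inactivates MAP kinases. Per1, Klf9 and Zbtb16 (PLZF) encode transcriptional regulators, of which Per1 belongs to the circadian clock. Sgk1 encodes a kinase known for regulating ion transport. In mm9 the kept transcripts lie at chr17:28536040-28623057 (Fkbp5, minus strand), chrX:137074068-137077724 (Tsc22d3, minus), chr11:68912458-68923459 (Per1, plus), chr19:23215716-23241401 (Klf9, plus), chr9:48462402-48644050 (Zbtb16, minus), chr17:26642536-26645417 (Dusp1, minus), chr10:21714472-21719708 (Sgk1, plus) and chr6:128380125-128388649 (Fkbp4, minus).

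The elements searched for were those through which these receptors and the cAMP pathway act. All were looked for on both strands of the mm9 genome around the start of every gene's kept transcript, the steroid elements in 10001 bases centred on it and the cAMP element in a shorter promoter window. The full palindromic steroid element, AGAACA and TGTTCT with any bases (NNN) between them, was present around 25 of 20293 genes (0.123%). Sgk1 alone among the 8 held it, 958 bases upstream of the start (chr10:21713507-21713521, plus strand), in a stretch that is an intron of a longer Sgk1 transcript in the GENCODE M1 annotation. The element is in capitals in this line, which reads 5′ to 3′ along the gene:
Sgk1: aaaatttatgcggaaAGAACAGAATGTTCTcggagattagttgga

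The shorter core, GNACA and TGTNC with NNN between them, which every full element also contains, was found around 3183 of 20293 genes (15.7%) and around 4 of the 8. These are shown because they are the places where the members carry the receptors' own motif. Besides the Sgk1 site, Dusp1 had it 1021 bases upstream (chr17:26646432-26646444, minus strand, between annotated genes). Fkbp5 had it 1153 bases into the gene, in an intron (chr17:28621898-28621910, minus strand). Per1 had it at 2 places, 1873 bases upstream (chr11:68910579-68910591, plus strand) and 467 bases into the gene (chr11:68912919-68912931, plus strand), both in introns of Per1 transcripts in GENCODE M1. The core is in capitals:
Dusp1: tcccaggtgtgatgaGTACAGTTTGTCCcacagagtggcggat
Fkbp5: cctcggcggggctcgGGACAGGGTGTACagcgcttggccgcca
Per1 upstream: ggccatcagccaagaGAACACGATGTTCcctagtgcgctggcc
Per1 inside: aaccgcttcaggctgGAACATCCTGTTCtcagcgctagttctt

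Tsc22d3, Klf9, Zbtb16 and Fkbp4 held no match to either motif in this window, which says only that these letters were not there. Dusp1 was the sole member with a cAMP response element (TGACGTCA, in capitals below) among the 300 bases around the start, at 140 bases upstream (chr17:26645553-26645560, minus strand), against 513 of 20322 genes (2.52%).
Dusp1 cAMP element: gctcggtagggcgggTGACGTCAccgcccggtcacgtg

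Counted reads per library ran from 10.8 to 121 M (M for mega) in the 12 KSL libraries, from 17.2 to 20.8 M in the 6 erythroblast libraries, and were 107 M in Fancd2-/- and 100.2 M in wild-type whole marrow. Levels are CPM, read counts divided by the library total in M, with TMM scaling over all 20 libraries. Fancd2 itself averaged 5.21 ± 0.831 CPM in Fancd2-/- KSL cells on oxymetholone and 5.51 ± 0.583 CPM in Fancd2-/- KSL cells on placebo. The wild-type means were 14.7 ± 1.75 CPM on oxymetholone and 13.9 ± 1.81 CPM on placebo (SD, n = 3 each), so the genotype labels and this gene go together. Both sorts carried their defining markers: the summed level of 9 KSL markers was 0.622 to 2.16 CPM in erythroblasts and 2072 to 3087 CPM in KSL cells, while 8 erythroblast markers summed to 102900 to 122700 CPM in erythroblasts and 37.8 to 197 CPM in KSL cells. The library of Fancd2-/- KSL cells on placebo, replicate 3, was set off from the others, with a score of 66.9 on the leading principal component against -23.5 to 4.48 for the other 11. It also had the highest summed level of stromal markers, 181 CPM against 83.6 to 129 CPM in the other 11. Replicate 2 of that group had the highest neutrophil markers, 168 CPM against 15.8 to 45.9 CPM. Nr3c1, the glucocorticoid receptor gene, lay between 68.1 and 119.8 CPM in the KSL libraries.

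Oxymetholone left no called change in any of the 8 genes in KSL cells. In the Fancd2-/- pairs, in the wild-type pairs, in the mean of both and in the difference between genotypes, 0 of 8 members were called by edgeR's quasi-likelihood test with Benjamini-Hochberg adjustment (adjusted p under 0.05), against 0% of all 13259 genes tested in each. At an unadjusted p under 0.05 the members numbered 0 in each of the 4 tests, while 903, 356, 720 and 458 of all genes passed in that order. Each oxymetholone library was compared with the placebo library sorted under the same cytometer setting, which gave 3 pairs per genotype. Of the 48 differences, 8 genes in 6 pairs, 24 were above 0. No member went the same way in all 6 pairs, which 4.1% of all genes did. No member's oxymetholone and placebo libraries were fully separated in either genotype, against 7% of all genes in Fancd2-/- and 8.64% in wild-type KSL cells.

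Fkbp5, the FKBP51 gene and the usual readout of receptor activity, was the steadiest of the targets. It measured 102, 97.8 and 135 CPM in Fancd2-/- KSL cells on oxymetholone, against 98.6, 117.6 and 106 CPM in Fancd2-/- KSL cells on placebo. In wild-type KSL cells it was at 102, 103 and 91.1 CPM on oxymetholone, against 92.4, 101.6 and 87.7 CPM on placebo. The groups overlapped in both genotypes, and the highest of the 12 libraries was only 1.54 times the lowest. The oxymetholone value was above its placebo partner in 5 of 6 pairs, by at most 0.34 on the log2 scale, and in the remaining pair it was 0.27 below. Over both genotypes the fitted change was 0.06 ± 0.08 (log2 ± SE, adjusted p = 0.916), with a 95% interval of 0.921- to 1.18-fold. A larger average rise of Fkbp5 than 1.18-fold therefore lay outside the interval of these 6 pairs.

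Fkbp4, the FKBP52 gene, had a similarly narrow interval of 0.877- to 1.09-fold (log2 change -0.03 ± 0.07, adjusted p = 0.945). It measured 289, 328 and 455 CPM in Fancd2-/- KSL cells on oxymetholone, against 303, 380.4 and 499 CPM in Fancd2-/- KSL cells on placebo. In wild-type KSL cells it was at 326, 341 and 334 CPM on oxymetholone, against 327, 325 and 304 CPM on placebo. The oxymetholone library was lower in 3 of 3 Fancd2-/- pairs, by 0.07 to 0.21 on the log2 scale, and lower in 1 of 3 wild-type pairs. That difference between genotypes did not pass the test (log2 -0.23 ± 0.14, adjusted p = 0.953). The wild-type libraries all lay within 304 to 341 CPM, and the Fancd2-/- libraries spread from 289 to 499 CPM, with the library that stood apart at the top.

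Tsc22d3 varied far more between libraries than between diets. In Fancd2-/- KSL cells it was at 183.5, 178 and 181 CPM on oxymetholone, against 258, 333 and 157.5 CPM on placebo. In wild-type KSL cells it was at 419, 168 and 205 CPM on oxymetholone, against 246, 202 and 294 CPM on placebo. Only 2 of 6 pairs were higher with oxymetholone, and the fitted mean change was -0.20 ± 0.17 (adjusted p = 0.885, interval 0.674- to 1.13-fold). Replicate 1 of wild-type KSL cells on oxymetholone set the top of the range. Without its pair, the wild-type change was -0.38 ± 0.20 in place of 0.01 ± 0.24.

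Dusp1 shared that library at the top. It measured 22.5, 24.8 and 24.1 CPM in Fancd2-/- KSL cells on oxymetholone, against 23.3, 28.9 and 28.4 CPM in Fancd2-/- KSL cells on placebo. In wild-type KSL cells it was at 49.3, 18.2 and 22.1 CPM on oxymetholone, against 30.4, 16.5 and 30.9 CPM on placebo. The value of 49.3 CPM was 2.99 times the lowest of the 12 libraries. The fitted mean change was -0.01 ± 0.13 (adjusted p = 0.988, interval 0.820- to 1.20-fold).

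Per1 swung widely between partners, in both directions. In Fancd2-/- KSL cells it was at 31.7, 31.3 and 70.6 CPM on oxymetholone, against 34.2, 71.0 and 32.0 CPM on placebo. In each diet 1 library was far above its group mates. The 3 paired differences were -0.11, -1.18 and 1.14 on the log2 scale. In wild-type KSL cells it was at 70.1, 44.0 and 37.0 CPM on oxymetholone, against 51.8, 52.1 and 47.0 CPM on placebo. The interval of the mean change, 0.614- to 1.53-fold, was accordingly broad (log2 -0.04 ± 0.28, adjusted p = 0.981).

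Klf9, a zinc finger transcription factor, also varied by pair. Its paired differences were 0.17, -0.39 and 0.54 in Fancd2-/- cells and 0.35, -0.37 and -0.15 in wild-type cells, with levels between 18.4 and 37.8 CPM over the 12 libraries. The mean change was 0.03 ± 0.12 (adjusted p = 0.968, interval 0.852- to 1.22-fold). Sgk1, the gene with the full steroid element, ranged only from 7.51 to 13.0 CPM. Its oxymetholone library was higher in 4 of 6 pairs, and its mean change was 0.15 ± 0.12 (adjusted p = 0.885, interval 0.922- to 1.33-fold).

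Zbtb16 had the largest estimate of the 8, carried by 1 pair. In Fancd2-/- KSL cells it was at 3.42, 5.39 and 13.0 CPM on oxymetholone, against 4.82, 4.32 and 3.35 CPM on placebo. In wild-type KSL cells it was at 10.4, 14.98 and 12.8 CPM on oxymetholone, against 8.79, 13.2 and 13.2 CPM on placebo. The fitted change in Fancd2-/- cells was 0.65 ± 0.34 (adjusted p = 0.688, interval 0.932- to 2.65-fold). Without the third Fancd2-/- pair, which joins the oxymetholone library at 13.0 CPM with the placebo library that stood apart, it was -0.01 ± 0.23. Over both genotypes it was 0.40 ± 0.23 (adjusted p = 0.868, interval 0.931- to 1.88-fold).

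**Figure D1:**
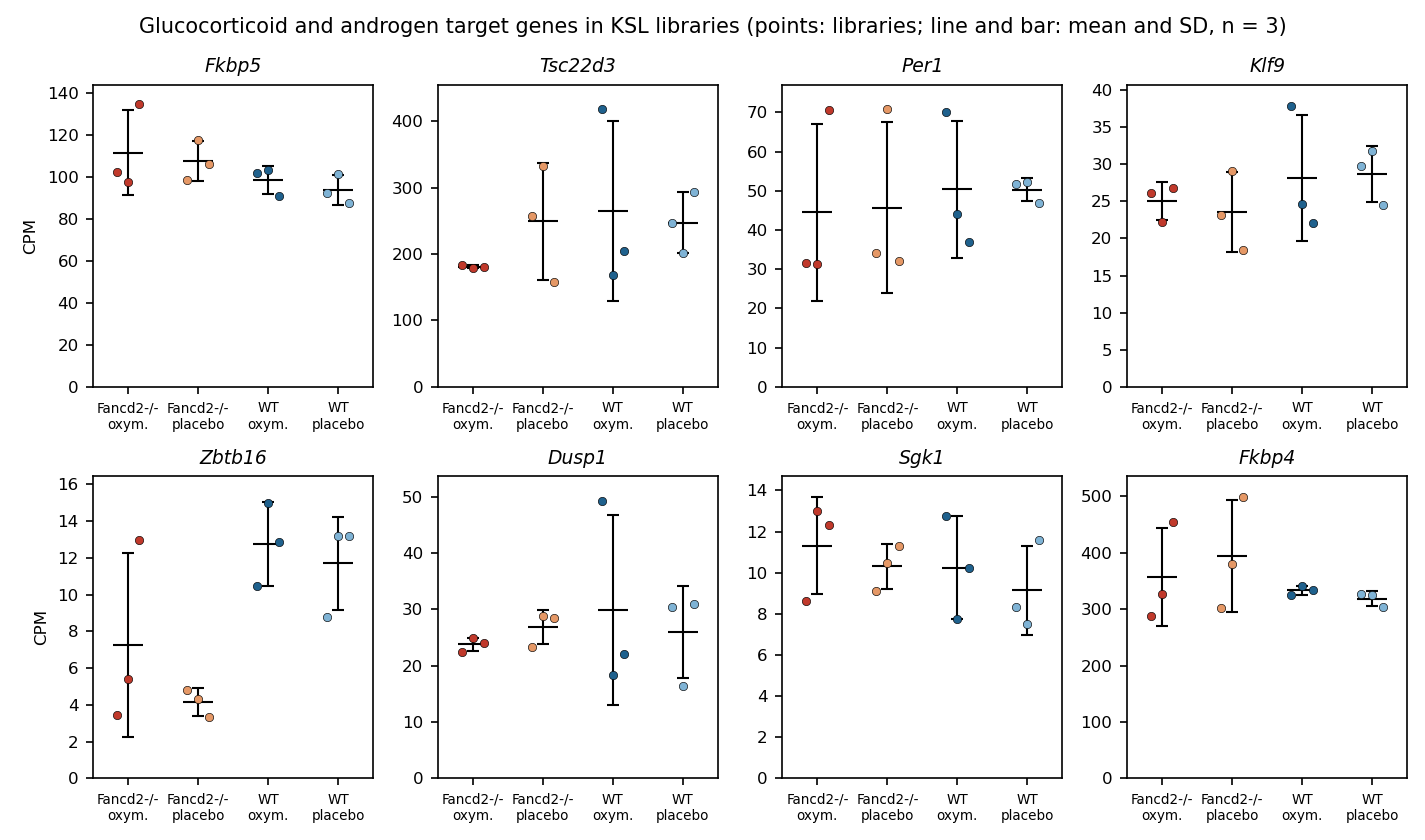
Level in CPM (linear axes from 0) of each gene in the 12 KSL libraries, grouped as Fancd2-/- on oxymetholone, Fancd2-/- on placebo, wild type on oxymetholone and wild type on placebo. Points are libraries, the line is the mean and the bar the SD (n = 3); oxymetholone and placebo overlap in every panel, and in the Zbtb16 panel the 3 Fancd2-/- placebo libraries (3.35 to 4.82 CPM) lie below the 3 wild-type placebo libraries (8.79 to 13.2 CPM).

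**Figure D2:**
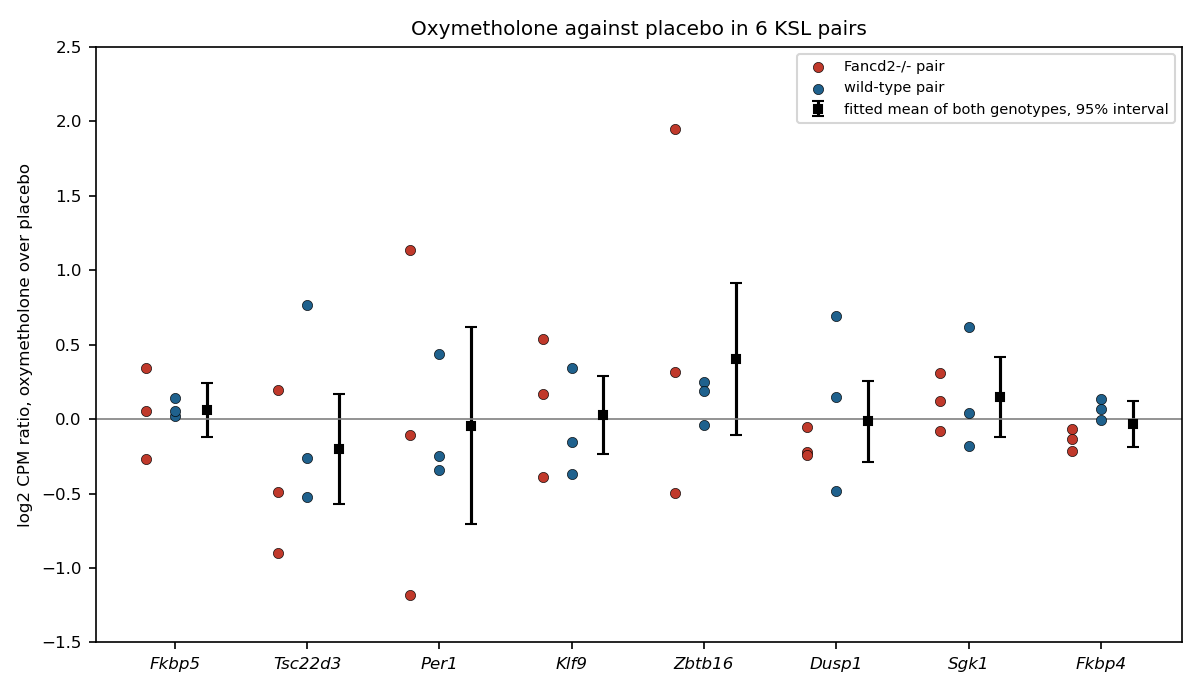
Log2 ratio of CPM, oxymetholone over placebo, in each of the 6 KSL pairs (red: Fancd2-/-, blue: wild type), with the fitted mean of both genotypes and its 95% interval as a black square and bar. All 8 intervals include 0. The widest spread between pairs is that of Zbtb16 (-0.495 to 1.95, the latter in the third Fancd2-/- pair), followed by Per1 (-1.18 to 1.14).

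The wider lists of pathway genes gave the same picture for diet in KSL cells. Among 22 other glucocorticoid targets tested, 13 were above 0 in Fancd2-/- cells and 9 in wild-type cells, with median log2 changes of 0.04 and -0.03 beside -0.01 for all genes in each, and 0 were called. Of 14 other androgen targets, 5 and 7 were above 0, and 0 were called. The smallest p among the glucocorticoid targets was that of Cdkn1c, a cell cycle inhibitor, in wild-type cells (log2 -0.40 ± 0.12, adjusted p = 0.999). Among 13 receptor and steroid enzyme genes, 12 were above 0 in Fancd2-/- cells with a median of 0.26, led by Pgr, the progesterone receptor gene (1.03 ± 0.38, adjusted p = 0.688), and 9 were above 0 in wild-type cells with a median of 0.04. Above 0 in Fancd2-/- and in wild-type cells were 4 and 11 of 14 receptor chaperones, 9 and 8 of 15 relatives of the members, 10 and 3 of 13 clock genes, and 10 and 9 of 16 immediate early genes, with 0 called in any list.

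Of the 8 genes, Zbtb16 had the largest estimated difference by genotype on both diets. On placebo, 0 of 8 members were called between Fancd2-/- and wild-type KSL cells, against 1.28% of all genes (170 of 13259). Zbtb16 came nearest, at 4.16 ± 0.747 CPM in Fancd2-/- cells and 11.7 ± 2.53 CPM in wild-type cells (SD, n = 3 each). Its log2 change was -1.46 ± 0.37 (adjusted p = 0.0683), a 95% interval of 0.21- to 0.625-fold. It was the sole member whose groups did not overlap on placebo, with the Fancd2-/- libraries lower, a pattern seen in 15.3% of all genes. DESeq2 and limma voom called it (adjusted p = 0.00318 and 0.00347), but they also called more genes, 815 and 1412 of 13259. Left out in turn, each of the 6 placebo libraries gave an adjusted p between 0.0719 and 0.223, and without the library that stood apart the change was -1.34 ± 0.42 (adjusted p = 0.169).

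On oxymetholone, 0 of 8 members were called, against 0.128% of all genes (17 of 13259), and no member's groups were separated, against 12% of all genes. Zbtb16 averaged 7.25 ± 5.03 CPM in Fancd2-/- cells and 12.8 ± 2.27 CPM in wild-type cells (log2 -0.78 ± 0.35, adjusted p = 0.869). Replicate 3 of Fancd2-/- KSL cells on oxymetholone, at 13.0 CPM, lay within the wild-type range. Its Fancd2 level, within 4.69 to 6.16 CPM like those of the other 5 Fancd2-/- libraries, fitted its label. Its score on the second principal component, -18.05, lay within the wild-type range of -25.73 to 2.97. Replicate 3 of Fancd2-/- KSL cells on placebo was at -8.37, and the remaining Fancd2-/- libraries were at 14.51 to 31.23. Replicate 3 of Fancd2-/- KSL cells on oxymetholone was also 1 of 3 KSL libraries with over 100 M counted reads. Among those 3, Zbtb16 measured 13.0 CPM with Fancd2 disrupted and 13.2 and 14.98 CPM in the wild type. Among the 9 shallower ones it was at 3.35 to 5.39 CPM in the 5 Fancd2-/- libraries and at 8.79 to 13.2 CPM in the 4 wild-type libraries. This depth limit was chosen after seeing the values and leaves out the high Fancd2-/- library, so the gap between these ranges supports nothing by itself. With the 3 deepest libraries left out, a comparison added after seeing the data, the log2 change was -1.38 ± 0.30 on oxymetholone (adjusted p = 0.851). On placebo it was -1.36 ± 0.27 (adjusted p = 0.0894). The oxymetholone value lacks the high Fancd2-/- library by the same choice, so it supports nothing by itself either. Whether depth has a part in the value of that library was not tested.

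The summed level of 9 KSL markers differed by genotype as well, at 2072 to 2703 CPM in the 6 Fancd2-/- libraries and 2895 to 3087 CPM in the 6 wild-type libraries. Single markers did not all follow the sum. On each diet 3 of 9 were above 0 in Fancd2-/- cells, with 1 called lower on placebo and 1 called higher on oxymetholone. The replicate with high Zbtb16 was at 2561 CPM, among the Fancd2-/- values. In pooled cells, fewer cells of a type and less RNA per cell cannot be told apart, and the part of cell make-up in the Zbtb16 difference was not tested. Over the 12 KSL libraries, the genes most like Zbtb16 among 11675 expressed genes were Zfand3, Mtss1l and Nynrin, with Pearson r of log2 CPM of 0.955, 0.953 and 0.946.

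**Figure D3:**
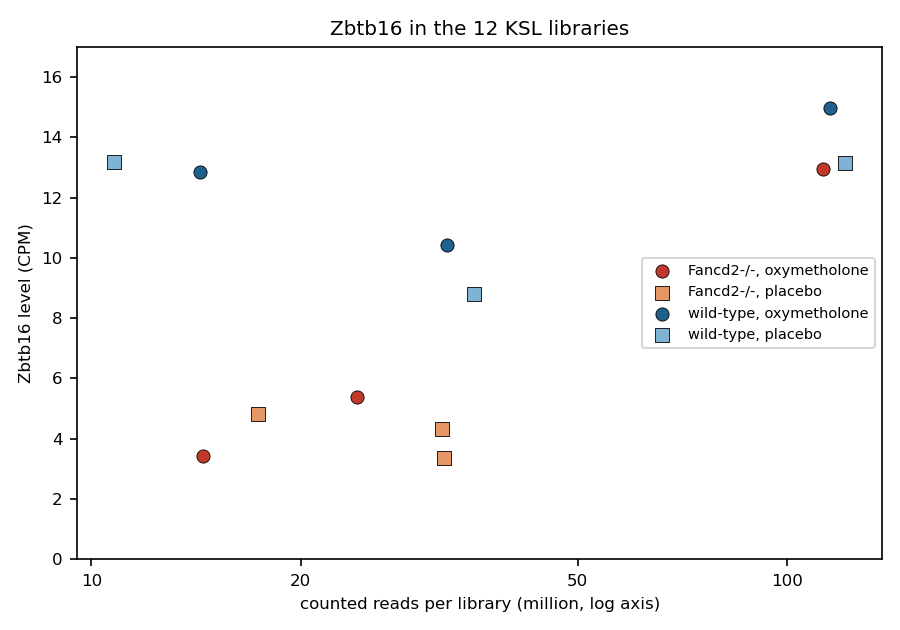
Zbtb16 level in CPM against counted reads per library (log axis, 10.8 to 121 M) in the 12 KSL libraries, coloured by genotype and diet, circles for oxymetholone and squares for placebo. Among the 9 shallower libraries the 5 Fancd2-/- ones (3.35 to 5.39 CPM) lie under the 4 wild-type ones, and among the 3 deepest the Fancd2-/- library (13.0 CPM) lies beside the 2 wild-type ones.

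None of the other members was called by genotype. Fkbp5 averaged 107.6 ± 9.57 CPM in Fancd2-/- cells and 93.9 ± 7.12 CPM in wild-type cells on placebo (log2 0.23 ± 0.13, adjusted p = 0.325), and 111.7 ± 20.2 CPM against 98.8 ± 6.70 CPM on oxymetholone (0.18 ± 0.13, adjusted p = 0.999). Fkbp4 averaged 394 ± 99.1 CPM in Fancd2-/- cells and 319 ± 13.1 CPM in wild-type cells on placebo (0.35 ± 0.18, adjusted p = 0.304). Without the library that stood apart, the Fkbp4 change was 0.12 ± 0.16. The chaperones that share the receptor complex with Fkbp4 leaned the same way on placebo, with 13 of 14 above 0 and a median of 0.34 beside -0.01 for all genes, but 0 were called, and 7 of the 14 had their highest KSL value in that same library. On oxymetholone, a comparison without that library, 13 of 14 were above 0 as well, with a median of 0.19 beside 0.01 for all genes and 0 called. Tsc22d3, Per1, Klf9, Dusp1 and Sgk1 had log2 changes between -0.26 and 0.23 on placebo, none called. On oxymetholone, Tsc22d3 had the next largest estimate after Zbtb16 (-0.54 ± 0.29, adjusted p = 0.999). Of 22 other glucocorticoid targets, 6 were above 0 in Fancd2-/- cells on placebo. By the test 0 were called higher and 2 called lower, where 1.28% of all genes were called in either direction. These were Cdkn1c, at 19.1 CPM in Fancd2-/- cells and 33.6 CPM in wild-type cells (-0.78 ± 0.13, adjusted p = 0.0128), and Hif3a, an inhibitory partner of the hypoxia factors, at 6.30 CPM against 13.3 CPM (-1.05 ± 0.24, adjusted p = 0.0483). On oxymetholone 0 of these 22 were called, and Hif3a had the smallest p (-0.56 ± 0.24, adjusted p = 0.808).

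In erythroblasts, oxymetholone was followed by no called change either. Zbtb16 was too low to test, and of the other 7 members 0 were called, against 0% of 9694 genes, of which 123 had an unadjusted p under 0.05. No member reached that level. Klf9 was the sole member without overlap, at 10.3, 10.6 and 11.5 CPM on oxymetholone, against 11.7, 12.3 and 12.8 CPM on placebo (log2 -0.20 ± 0.12, adjusted p = 0.9995). Groups separated in that direction were seen in 2.31% of all genes. Fkbp5 was again steady, at 42.6, 36.0 and 42.0 CPM on oxymetholone, against 36.8, 40.5 and 35.9 CPM on placebo (0.07 ± 0.09, interval 0.912- to 1.21-fold). Sgk1 measured 6.10, 8.44 and 6.29 CPM on oxymetholone, against 6.59, 4.98 and 5.99 CPM on placebo, with overlap. Of the 17 other glucocorticoid targets and 10 other androgen targets tested in erythroblasts, 6 and 6 were above 0 and 0 were called.

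Replicate 1 of the placebo erythroblasts was the highest of the 6 libraries for Tsc22d3, Per1, Dusp1 and Fkbp4. Dusp1 was at 483, 352 and 344 CPM on oxymetholone, against 898.5, 398 and 348 CPM on placebo. Tsc22d3 was at 10.3, 9.67 and 8.93 CPM on oxymetholone, against 16.4, 13.4 and 8.81 CPM on placebo. Per1 was at 41.7, 22.6 and 26.8 CPM on oxymetholone, against 58.6, 34.6 and 28.6 CPM on placebo. The same library was highest for 10 of 14 receptor chaperones and for 4 of 8 expressed immediate early genes. With all libraries the log2 changes were -0.50 ± 0.47 for Dusp1, -0.43 ± 0.21 for Tsc22d3, -0.44 ± 0.39 for Per1 and -0.19 ± 0.13 for Fkbp4. Without that library they were 0.06 ± 0.17, -0.22 ± 0.19, -0.07 ± 0.28 and -0.05 ± 0.11. In the test of whether the oxymetholone effect differed between erythroblasts and KSL cells, 0 of 8 members were called, against 0.0155% of 12863 genes, and their adjusted p-values were all 1.

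The 8 genes differed strongly between the populations. Among wild-type placebo libraries, 7 of 8 were called between erythroblasts and KSL cells, and so were 91% of all 12538 genes tested. Dusp1 alone rose, as did 37.2% of all genes, and 6 members fell, as did 53.7% of all genes. The median log2 change of all genes was -0.67, against which these values are read. Neutrophil markers were higher in erythroblasts too, with 9 of 9 called (median log2 change 3.87) and summed levels of 286 to 514 CPM in the 6 erythroblast libraries and 15.8 to 168 CPM in the 12 KSL libraries, and their part in the members' values was not tested. By overlap between the placebo libraries the members split as by the test, 1 higher (37% of all genes) and 6 lower (54.9%). With this background the counts say nothing particular about these genes, and the sizes are what follows.

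Dusp1 was at 898.5, 398 and 348 CPM in placebo erythroblasts, against 30.4, 16.5 and 30.9 CPM in placebo KSL cells. Its log2 change was 4.49 ± 0.59 (adjusted p = 0.00142), or 22.4-fold with an interval of 7.46- to 67.5-fold. Under library totals, which lower every erythroblast value, it was 3.05 ± 0.56 (adjusted p = 0.00524). It was the most abundant member per kb of exon in erythroblasts, at 174.5 CPM per kb on average over the 6 libraries. In KSL cells, where the order per kb was Fkbp4, Tsc22d3, Fkbp5, Dusp1, Per1, Klf9, Sgk1 and Zbtb16, Dusp1 averaged 9.87 CPM per kb, Per1 8.48 and Klf9 8.08. Those 3 neighbours do not differ beyond their spread, since each varied at least 2.05-fold between libraries. The length used was the union of exons of all GENCODE M1 transcripts of a gene, while the counts were those of the kept transcript. For Tsc22d3 that union, 4341 bases, is longer than the whole span of the kept transcript, so its level per kb is understated. An order by the length of the kept transcripts was not made.

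Tsc22d3 showed the opposite. It was at 16.4, 13.4 and 8.81 CPM in placebo erythroblasts, against 246, 202 and 294 CPM in placebo KSL cells, a log2 change of -4.20 ± 0.22 (adjusted p = 3.167e-09). Every erythroblast library lay far below every KSL library. Zbtb16 was nearly absent from erythroblasts, with 0, 0 and 3 reads in the placebo libraries and 2, 0 and 0 reads in the oxymetholone libraries. Against wild-type KSL cells, its summed level was 0.00786 times as high on placebo (95% counting interval 0.00162 to 0.023) and 0.00441 times as high on oxymetholone (0.000534 to 0.0159).

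Both immunophilin genes fell. Fkbp4 was at 59.8, 47.7 and 44.5 CPM in placebo erythroblasts, against 327, 325 and 304 CPM in placebo KSL cells (-2.59 ± 0.13, adjusted p = 1.911e-11). Fkbp5 was at 36.8, 40.5 and 35.9 CPM in placebo erythroblasts, against 92.4, 101.6 and 87.7 CPM in placebo KSL cells (-1.26 ± 0.11, adjusted p = 4e-08). By the same union of exons, Fkbp4 was the most abundant member per kb in KSL cells, at 125.5 CPM per kb on average, and stood at 17.1 CPM per kb in erythroblasts. Klf9 fell by 1.17 ± 0.15 (adjusted p = 2.123e-06), with libraries at 11.7 to 12.8 CPM in placebo erythroblasts and 24.5 to 31.8 CPM in placebo KSL cells.

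Sgk1 and Per1 were the members whose call depended on the processing. Sgk1 was at 6.59, 4.98 and 5.99 CPM in placebo erythroblasts, against 8.31, 7.51 and 11.6 CPM in placebo KSL cells (-0.56 ± 0.21, adjusted p = 0.0219), and it fell less than the median gene. DESeq2 did not call it (adjusted p = 0.0863), nor did edgeR with median-of-ratios size factors (adjusted p = 0.0898). Without wild-type placebo KSL replicate 3 or placebo erythroblast replicate 2 its adjusted p was 0.0815 or 0.0995. Per1 was at 58.6, 34.6 and 28.6 CPM in placebo erythroblasts, against 51.8, 52.1 and 47.0 CPM in placebo KSL cells, with overlap (-0.25 ± 0.24, adjusted p = 0.324). Without placebo erythroblast replicate 1 the Per1 change was -0.62 ± 0.14 (adjusted p = 0.000532). Scaling to library totals alone moved the median of all genes to -2.08 and the Per1 change to -1.67 ± 0.22. Under it all 8 members were called, as were 11629 of all 12538 genes. The changes of the other lower members under it were -5.63 for Tsc22d3, -4.01 for Fkbp4, -2.67 for Fkbp5, -2.58 for Klf9 and -1.98 for Sgk1. The TMM factors that this leaves out were 0.524 to 0.569 in erythroblasts and 1.34 to 1.46 in KSL cells.

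**Figure D4:**
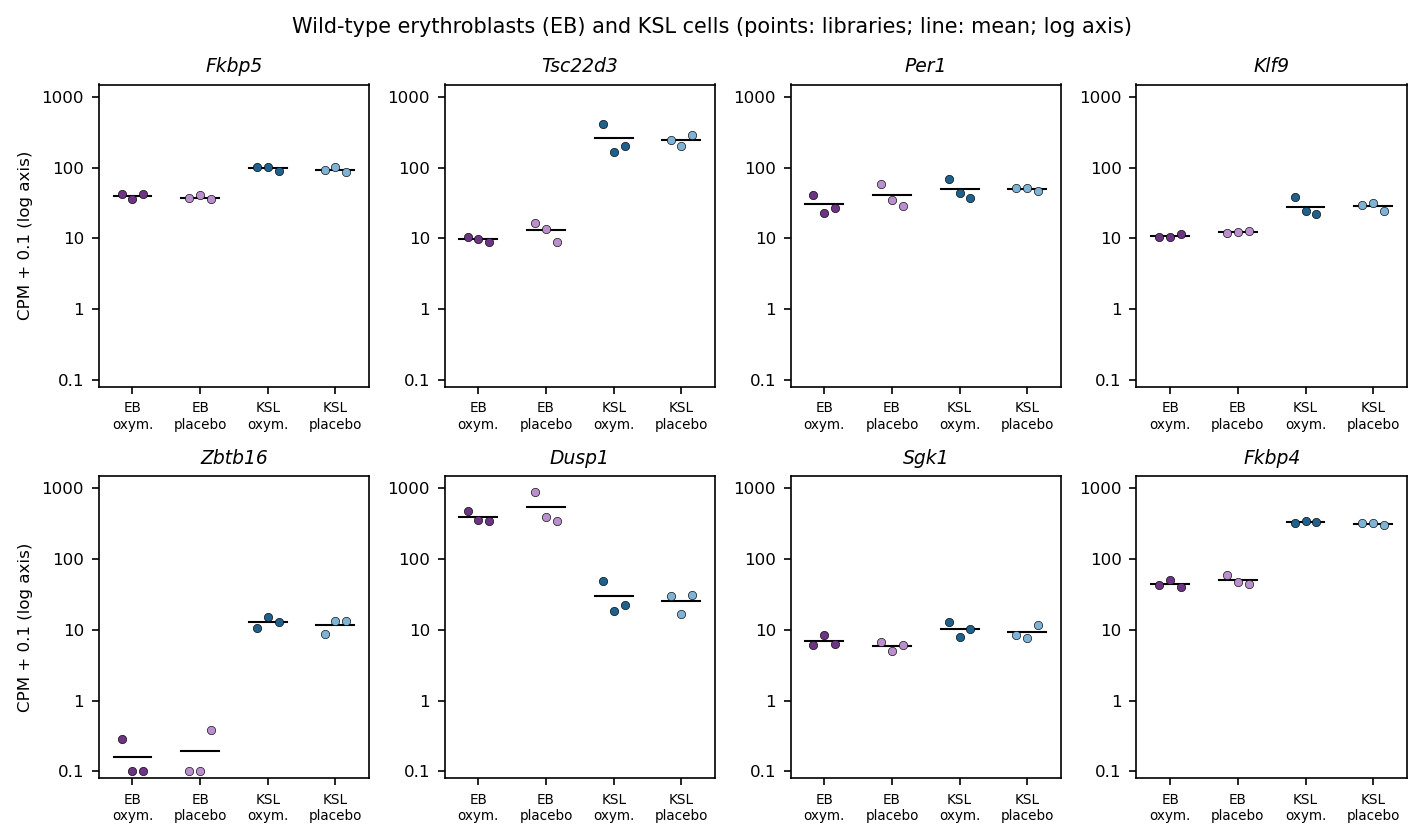
Level of each gene in wild-type erythroblasts on oxymetholone, erythroblasts on placebo, KSL cells on oxymetholone and KSL cells on placebo, as CPM plus 0.1 on a shared log axis. Points are libraries and lines are means; Dusp1 is higher in all 6 erythroblast libraries, Fkbp5, Tsc22d3, Klf9, Zbtb16 and Fkbp4 are lower in all 6, and Per1 and Sgk1 overlap.

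Around these genes, Nr3c1, named for its role and outside the rule that chose the other genes, rose in erythroblasts, with means of 165 CPM in placebo erythroblasts and 94.4 CPM in wild-type placebo KSL cells (0.87 ± 0.11, adjusted p = 1.492e-06), but its direction depended on the scaling, with a log2 ratio of mean levels of 0.80 under TMM and -0.56 under library totals. Rose and fell mean called higher and lower here, as 37.2% and 53.7% of all genes were. Of 22 other glucocorticoid targets, 5 rose and 15 fell, with a median of -2.87. Those with the smallest p were Rgs2, a G protein regulator (-5.58 ± 0.18), Foxo1, a forkhead factor (-3.70 ± 0.16), Cdkn1c (-5.97 ± 0.27) and Irs2, an insulin receptor substrate (3.51 ± 0.16). All 13 clock genes tested fell, with a median of -3.47, led by Tef (-5.21 ± 0.19), Dbp (-5.18 ± 0.20), Nr1d1 (-3.85 ± 0.22) and Cry1 (-3.71 ± 0.22). Per1, a gene of that same clock, did not fall with them by the test. Among 14 immediate early genes 4 rose and 10 fell, so the high Dusp1 of erythroblasts was not shared by the list as a whole. Btg2, an antiproliferative gene (6.33 ± 0.18), and Ier5 (2.26 ± 0.12) rose. Zfp36, whose product destabilises mRNAs (-5.76 ± 0.28), and Ier3 (-6.81 ± 0.35) fell. Of 13 other androgen targets 3 rose and 7 fell, of 10 receptor and steroid enzyme genes 3 rose and 7 fell, of 14 receptor chaperones 4 rose and 3 fell, and of 15 relatives of the members 5 rose and 9 fell. Counts of genes above 0 moved with the scaling as well: by the ratio of mean levels, 8 of 14 chaperones were above 0 under TMM and 1 of 14 under library totals. For the immediate early genes it was 4 of 13 expressed genes under both, and for the clock genes 0 of 12 under both.

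Whole bone marrow, a mixture dominated by maturing cells, had its own order of levels. Its 9 neutrophil markers summed to 132100 CPM in Fancd2-/- marrow and 123700 CPM in wild-type marrow, and its 8 erythroblast markers to 32220 CPM in Fancd2-/- marrow and 33500 CPM in wild-type marrow. Sgk1 was at 60.3 CPM in Fancd2-/- marrow and 54.9 CPM in wild-type marrow, above every KSL library (7.51 to 13.0 CPM) and every erythroblast library (4.98 to 8.44 CPM). Dusp1, at 191 CPM in Fancd2-/- marrow and 130 CPM in wild-type marrow, lay between erythroblasts and KSL cells. Tsc22d3, at 228 CPM in Fancd2-/- marrow and 175 CPM in wild-type marrow, lay within the KSL range. Fkbp5, at 84.0 CPM in Fancd2-/- marrow and 76.4 CPM in wild-type marrow, lay above every erythroblast library and below every KSL library.

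With 1 library per genotype there was no replicate check, and the intervals cover counting error only. The Fancd2-/- over wild-type ratio was 1.47 for Dusp1 (95% interval 1.44 to 1.51), 1.40 for Per1 (1.34 to 1.47), 1.30 for Tsc22d3 (1.28 to 1.33), 1.15 for Zbtb16 (1.02 to 1.29), 1.15 for Klf9 (1.07 to 1.23), 1.10 for Fkbp5 (1.06 to 1.14), 1.10 for Sgk1 (1.06 to 1.14) and 0.981 for Fkbp4 (0.961 to 1.001). Thus 7 of 8 were above 1, where the median ratio of all genes was 1.001, and 0 of 8 were past 1.5-fold, against 1.76% of 12424 genes with at least 100 counts. Zbtb16 was not lower in the Fancd2-/- whole marrow library, at 7.43 CPM against 6.46 CPM, in contrast to the placebo KSL cells. Fancd2 in the same libraries had a ratio of 0.272 (0.251 to 0.295).

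**Figure D5:**
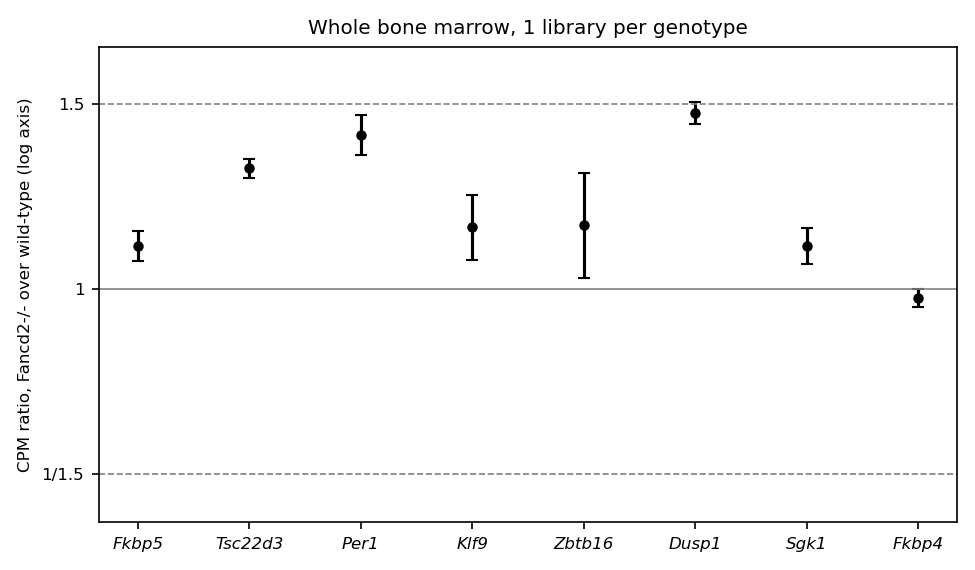
Ratio of CPM in Fancd2-/- over wild-type whole bone marrow for each gene (log axis; points are ratios of 1 library each, bars the 95% interval for counting error). The solid line marks 1 and the dashed lines 1.5-fold in either direction; Dusp1 (1.47) and Per1 (1.40) are highest and Fkbp4 (0.981) is the sole ratio under 1.

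The members did not vary as 1 block over the 12 KSL libraries. Pearson r of log2 CPM was 0.764 between Per1 and Klf9, 0.717 between Tsc22d3 and Dusp1, 0.668 between Fkbp5 and Fkbp4, 0.654 between Tsc22d3 and Klf9 and 0.640 between Dusp1 and Sgk1, while Fkbp4 ran at -0.336 against Tsc22d3. These are descriptions over libraries that share genotypes, diets and depth differences. Replicate 1 of wild-type KSL cells on oxymetholone was the highest of the 12 for Tsc22d3, Klf9 and Dusp1. It was also highest for 3 of 14 expressed immediate early genes, and replicate 3 of Fancd2-/- KSL cells on placebo was highest for 4 of them. In the library where each was highest, Fos was at 31.5 CPM against 3.85 to 19.8 CPM in the other 11, and Klf2 at 19.3 CPM against 0.863 to 3.44 CPM.

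For each member, the 3 genes most like it over the same libraries are given here, and no gene appears for more than 1 member. For Dusp1 they were Plk2 (r = 0.883), Ddit4 (0.874) and Klf2 (0.843), and for Sgk1 they were Fos (0.890), Prkar1a (0.814) and Ttpal (0.812). For Tsc22d3 they were Pde4b (0.917), Sla (0.905) and Ifngr1 (0.897). For Fkbp4 they were Ahsa1 (0.968), Clpb (0.962) and Stip1 (0.961), of which Ahsa1 and Stip1 encode HSP90 cochaperones. Ahsa1 was highest in the library that stood apart, at 224 CPM, followed by 204 CPM in replicate 3 of Fancd2-/- KSL cells on oxymetholone, the same 2 libraries that led for Fkbp4. For Fkbp5 they were B3gnt7 (0.888), Spsb4 (0.887) and Gclm (0.884), for Per1 Rbm22 (0.898), Inpp5b (0.867) and Ptger2 (0.853), and for Klf9 Gpr132 (0.875), Mmp19 (0.850) and Dhrs11 (0.848).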

How the data were processed

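Counts per transcript were deposited for 20 libraries, and per the labels' protocols and the design text 51-base reads were aligned to mm9 with Bowtie and analysed by the authors with edgeR. Versions, annotation and strandedness were not given in the sources used here. The deposited table had 26005 rows, and 0 rows lacked a symbol. For each symbol the row with the largest total was kept, giving 20377 genes. A second deposited table of scaled values was not used. The members and lists were chosen with earlier results of these data known.

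Tests used edgeR 4.0.16 (quasi-likelihood, robust, TMM, filterByExpr) in R 4.3.3, with Benjamini-Hochberg adjustment over all genes tested and calls at an adjusted p under 0.05. Oxymetholone was compared with placebo in KSL cells with the pair as a block over 12 libraries, since the design text states that both libraries of a pair shared a flow cytometer setting. The deviations of the paired libraries correlated at 0.134, -0.061 and 0.214 in Fancd2-/- and at 0.114, 0.258 and 0.131 in wild-type cells. Genotypes were compared over the same 12 libraries, erythroblast diets over 6, erythroblasts with KSL cells on placebo over 6, and the diet effect between the populations over 12 wild-type libraries. These fits used group means with no pair block, so the last of them set aside the pairing of the wild-type KSL libraries. Whole marrow gave ratios with exact counting intervals, which cover counting error only. No replicate libraries were identical, and their counts differed by more than sampling noise (lowest chi-square per degree of freedom 6.2).

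From the other lists the text names up to 4 called genes per comparison by smallest p, or the gene with the smallest p where none was called. It also names the 3 genes most like each member by Pearson r over the KSL libraries. DESeq2 1.42.0, limma 3.58.1 voom with sample weights, other scalings, no filter, summed rows, no block and left-out libraries were tried. The 2 rows of Per1 summed to 10067 counts in Fancd2-/- whole marrow, against 5034 in the kept row, so they were nearly alike. Where rows are so alike, summing them tests little of the row choice. The fits were tested on simulated data that had no pair effects. The changes planted there were larger than the members' fitted diet changes in KSL cells, so that test says nothing about finding changes of the members' size.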

Additional observations from a re-analysis of the deposited data

How the results depend on the processing

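No count of called members moved by more than 1.5 times except for genotype on placebo, where 1 member (Zbtb16) was called by DESeq2 and by limma voom. These tools called 815 and 1412 of 13259 genes there, against 170 in the main test. Without the replicate block, 0 members were called in each KSL diet comparison. Scaling to library totals and leaving out the 3 deepest KSL libraries were chosen after seeing the data. Several uncalled log2 changes near 0 turned round; the cause was not tested. Under limma voom these were Fkbp5 (-0.026) and Klf9 (-0.0010) for diet in Fancd2-/- cells, Tsc22d3 (-0.20) for diet in wild-type cells, Klf9 (-0.086) for the mean of both, Sgk1 (0.049) for the interaction, Per1 (0.21) for genotype on placebo, Fkbp4 (-0.086) for genotype on oxymetholone, and Fkbp5 (0.035) and Klf9 (0.0082) for the diet effect between populations. Under library totals they were Tsc22d3 for diet in wild-type cells (-0.0025) and for genotype on placebo (-0.0034), and Per1 for the interaction (0.00033). With no filter it was Fkbp5 between populations (0.0020), and with no replicate block Dusp1 for the mean (0.018) and Per1 in wild-type cells (0.016). Without the 3 deepest libraries they were Dusp1 (-0.15) and Tsc22d3 (-0.093) for genotype on placebo, and Fkbp4 (-0.087) and Sgk1 (-0.077) on oxymetholone.

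Leaving out 1 pair or library at a time also turned changes round. For diet in Fancd2-/- cells the ranges were -0.080 to 0.17 for Fkbp5, -0.64 to 0.50 for Per1, -0.090 to 0.33 for Klf9, -0.015 to 1.15 for Zbtb16 (1.145 at most) and -0.0035 to 0.20 for Sgk1. For diet in wild-type cells they were -0.38 to 0.30 for Tsc22d3, -0.28 to 0.14 for Per1, -0.25 to 0.14 for Klf9, -0.14 to 0.46 for Dusp1 and -0.047 to 0.37 for Sgk1. For the mean of both they were -0.33 to 0.24 for Per1, -0.084 to 0.15 for Klf9 and -0.17 to 0.14 for Dusp1. For the interaction they were -0.18 to 0.062 for Fkbp5, -0.62 to 0.52 for Per1, -0.060 to 0.36 for Klf9, -0.18 to 0.97 for Zbtb16 and -0.25 to 0.15 for Sgk1. For genotype on placebo they were -0.19 to 0.27 for Tsc22d3, -0.53 to 0.083 for Per1 and -0.15 to 0.27 for Dusp1. For genotype on oxymetholone they were -0.65 to 0.14 for Per1, -0.29 to 0.11 for Klf9, -0.58 to 0.25 for Dusp1, -0.019 to 0.35 for Sgk1 and -0.084 to 0.23 for Fkbp4. For diet in erythroblasts the range was -0.75 to 0.063 for Dusp1. For the diet effect between populations they were -0.087 to 0.058 for Fkbp5, -0.33 to 0.076 for Klf9, -0.13 to 0.23 for Sgk1 and -5.40 to 4.44 for Zbtb16, which had 5 reads in all 6 erythroblast libraries. KSL libraries differed 11.3-fold in depth, and whole marrow had no replicate.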
